A study of Mus musculus with 8 samples.

Results

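The 8 genes described here, Tdgf1, Bmpr1b, Htra3, Adam9, Snx6, Arrb2, Rasl11b and Hpgd, are those that the study linked to transforming growth factor beta (TGF-β) signaling among the mRNAs it found downregulated in DBA/1 mice. Each was measured by 1 probe, taken from the study's list of 433 changed mRNA probes, among 33179 probes of the array that could be tested. The members were therefore chosen by their strain difference on these same arrays, so that difference is a description and carries no test.

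Whole brainstem was taken from male mice, 5 weeks old, of the inbred strains DBA/1 (substrain DBA/1JNCrlj, n = 4) and C57BL/6 (substrain C57BL/6JNifdc, n = 4). DBA/1 mice are known for seizures in response to loud sound and for respiratory arrest after them, and C57BL/6 mice are the less susceptible comparison. No mouse had been tested for seizures, all were killed under isoflurane anesthesia, and each array held RNA from 1 mouse. Whole brainstem mixes many nuclei and cell types, so fewer cells of a type and less RNA per cell cannot be told apart. Each gene was read by 1 probe, and whether the strains differ in sequence or splicing at the probe was not tested.

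The TGF-β family includes TGF-βs, activins, Nodal and bone morphogenetic proteins (BMPs). These secreted ligands bring together type I and type II receptor kinases, which phosphorylate Smad proteins that move to the nucleus and regulate genes. Coreceptors, secreted proteases and the endocytic machinery tune how much ligand and receptor is available. In the nervous system the family acts in patterning, neuronal survival and the responses of glia. Tdgf1 and Bmpr1b act at the receptor level, Htra3 and Adam9 are proteases outside the cell or at its surface, Snx6 and Arrb2 act in receptor trafficking, and Rasl11b and Hpgd lie inside the cell. In the GO annotation that accompanies the probes, 4 members (Bmpr1b, Adam9, Arrb2 and Hpgd) carried the term for TGF-β receptor signaling and 2 (Snx6 and Htra3) the term for its negative regulation. For Rasl11b and Tdgf1 the annotation showed none of the TGF-β or BMP terms searched, and the entry for Tdgf1 was shortened. None of the other listed mRNAs showed one, but a term cut from a shortened entry could not be found. The entries of Bmpr1b, Adam9 and Arrb2 were shortened too.

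The array is a single-color Agilent design with probes for lncRNAs and mRNAs, and the labeling reaction primed RNA at random along its length. Probes well above background numbered 33045 to 36162 per C57BL/6 array and 29301 to 33350 per DBA/1 array. The 75th percentile of intensity was 67.6 to 109 and 47.1 to 75.03, respectively. Signals were compared after quantile normalization, which gives all arrays the same distribution, on the log2 scale with intensities under 5 set to 5, a floor of 2.32. All arrays lay on 1 slide with each strain in its own row, so the row and the strain cannot be told apart. No member spot was saturated, and each member had 1 spot per array. With 4 arrays a strain, precision is limited by their number.

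All 8 members met the study's criterion (at least a 2-fold change and p under 0.05 before adjustment, here by limma), and all were lower in DBA/1 mice. Over all tested probes, 3.31% were lower by this criterion, and nothing is read from the comparison because the criterion chose the members. In all 8, each DBA/1 value lay below each C57BL/6 value. Among the 31872 tested probes measured on every array, 7.23% did the same, and since it is the contrast that chose the members, nothing is read from this either. The median log2 difference (DBA/1 minus C57BL/6) was -1.37 over the members and -0.01 over all tested probes. The criterion that chose the members favored such a median, so nothing is read from this comparison. The members nearest the fold threshold were Htra3 at -1.19 and Bmpr1b at -1.26, while the nearest probes outside it, both unnamed, lay at -0.9999 and -0.9997.

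The 8 genes fell into 3 classes of detection. Snx6, Arrb2 and Adam9 were well above background on all 8 arrays. Tdgf1, Htra3 and Hpgd were well above background on the 4 C57BL/6 arrays and on 3 of 4 DBA/1 arrays. Rasl11b and Bmpr1b were well above background on all 4 C57BL/6 arrays and on 0 of 4 DBA/1 arrays. Of the 64 member spots, 11 were not well above background, and all of these were on DBA/1 arrays. Only probes well above background on at least 4 of 8 arrays were tested, and the members were chosen for a lower DBA/1 signal. A member with 0 of 4 DBA/1 detections therefore had to have all 4 in C57BL/6 mice. Nothing is read from the side on which the dim spots fell.

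**Figure D1:**
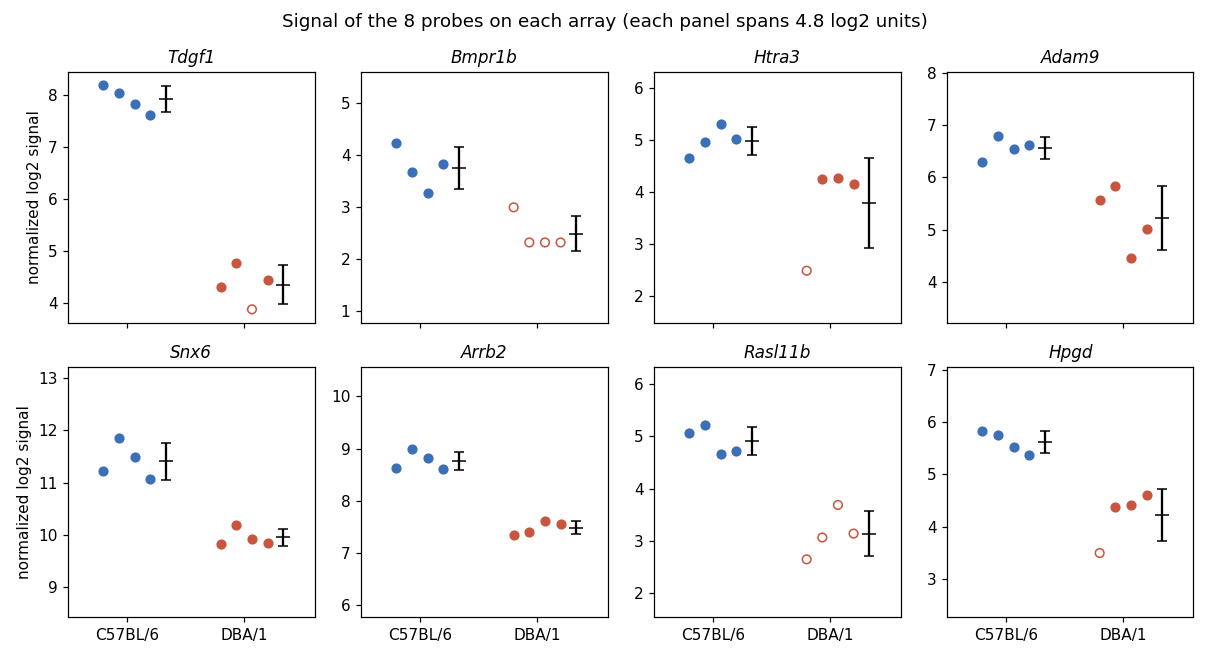
Normalized log2 signal (vertical axis, each panel spanning the same number of log2 units) of each member on the 4 C57BL/6 arrays (blue) and the 4 DBA/1 arrays (red), in replicate order within each strain. Filled points were well above background, open points were not, and black bars are the mean ± SD of 4 mice. In every panel the strains do not overlap, and the open points all belong to DBA/1. The members were chosen by this contrast, so nothing is read from either.

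At the receptor level, Tdgf1 had the largest strain difference of the 8 members. Tdgf1, also called Cripto, encodes a membrane-anchored coreceptor for Nodal that is best known from the early embryo. It lies on chromosome 9 from 110939608 to 110946158 of GRCm38.p6, on the minus strand. Its log2 signal in C57BL/6 replicates 1 to 4 was 8.18, 8.04, 7.82 and 7.61. In DBA/1 replicates 1 to 4 it was 4.32, 4.78, 3.89 and 4.44. The lowest C57BL/6 value exceeded the highest DBA/1 value by 2.83. The mean was 7.91 ± 0.25 (SD, n = 4) in C57BL/6 mice and 4.36 ± 0.37 (SD, n = 4) in DBA/1 mice. The log2 difference was -3.55 (standard error 0.22, limma), an 11.8-fold lower signal. DBA/1 replicate 3, the lowest, was the array on which Tdgf1 was not well above background. Before normalization its intensity was 250 to 307 in C57BL/6 mice and 9.47 to 23.9 in DBA/1 mice.

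Bmpr1b, a type I receptor for BMPs, was dim in DBA/1 mice, with its probe at the floor on 3 of the 4 arrays. The gene lies on chromosome 3 from 141837135 to 142169585, on the minus strand. C57BL/6 replicates 1 to 4 gave log2 signals of 4.22, 3.67, 3.27 and 3.83. These spots were dim too, with intensities of 11.2 to 21.1 before normalization, though well above background. DBA/1 replicate 1 gave 2.99, and the other 3 mice gave 2.32, the floor itself. Values at the floor have no order, so replicate 1 alone sets the gap of 0.28 to the lowest C57BL/6 value, and its spot was not well above background either. The scanner's own error on the DBA/1 spots was 33.3% to 100% of their intensity, against 14.7% to 20.6% on the C57BL/6 spots. The measured means were 3.75 ± 0.39 (SD, n = 4) and 2.49 ± 0.34 (SD, n = 4), and their difference of -1.26 (standard error 0.24, limma) depends on the floor. Where no array of a strain was well above background, a bound was computed in which the probe's value on a DBA/1 array was raised, where it was lower, to the lowest value of any probe well above background there. By this bound the DBA/1 signal of Bmpr1b was at least 1.504-fold lower. With a stricter limit, the highest value of any probe not well above background, the bound fell under 1 and no fold can be given.

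The Bmpr1b probe does not lie in every annotated transcript of the gene. Its listed coordinates run from 141982027 to 141982264, an interval of 237 bases of which the 60-base probe can cover only a part. The interval ends at the annotated start of its transcript, NM_007560, so the probe lies near the 5′ end. The RefSeq promoter table held 3 starts for Bmpr1b, and the other two lay 50.4 and 50.6 kb further along the direction of transcription, beyond the probe. Transcripts from those starts do not contain the probe's sequence position and were not measured by it. The annotated gene extends upstream of all 3 starts, to 142169585, and whether transcripts from there contain the probe was not examined. For 5 other members (Tdgf1, Htra3, Adam9, Snx6 and Arrb2) the listed interval of the probe came within 114 genomic bases of the 3′ end of its transcript, at distances of 114, 43, 20, 19 and 73 bases. The intervals of Tdgf1, Htra3 and Snx6 spanned 1098, 663 and 684 genomic bases, so these probes too cover only parts of them.

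The promoters of Tdgf1 and of the Bmpr1b start that its probe reads are shown because these receptor-level members had the largest difference of the 8 (Tdgf1) and values at the floor in DBA/1 mice (Bmpr1b). Each line gives the 250 bases before the annotated start, 5′ to 3′ on the gene's strand, from RefSeq (GRCm38.p6). Capitals mark CAGAC, the short element that Smad proteins are known to bind. The windows are chr9:110946159-110946408 and chr3:141982265-141982514, both on the minus strand.
Tdgf1: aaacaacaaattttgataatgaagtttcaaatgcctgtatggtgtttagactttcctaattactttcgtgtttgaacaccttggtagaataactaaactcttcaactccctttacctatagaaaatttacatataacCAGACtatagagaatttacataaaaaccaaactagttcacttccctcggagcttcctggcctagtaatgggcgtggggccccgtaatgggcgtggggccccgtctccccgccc
Bmpr1b: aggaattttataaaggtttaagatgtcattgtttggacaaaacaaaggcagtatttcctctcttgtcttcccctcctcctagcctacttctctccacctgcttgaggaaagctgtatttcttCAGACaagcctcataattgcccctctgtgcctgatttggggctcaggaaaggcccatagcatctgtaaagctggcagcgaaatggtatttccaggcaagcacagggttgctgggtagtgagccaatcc
CAGAC or its reverse complement GTCTG occurred in 49.6% of all 32851 promoters of the table (250 bases before to 50 after the start), so a match is common. Among the members, 6 genes had 8 promoters in the table, and CAGAC was found in 4 of these, belonging to Tdgf1, Hpgd and 2 of the 3 Bmpr1b starts. The longer palindrome GTCTAGAC occurred in 0.213% of all promoters and in 0 of the 8. The element GGCGCC, known from BMP-responsive Smad binding, occurred in 11.9% of all promoters and in 1 of the 8, that of Snx6. These matches on either strand are letters in a window and show no binding.

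Among the proteases, Htra3 was dim and uneven in DBA/1 mice. Htra3, a secreted serine protease that can bind TGF-β family ligands and restrain them, lies on chromosome 5 from 35652026 to 35679813. The 4 C57BL/6 mice, in replicate order, had log2 signals of 4.66, 4.96, 5.31 and 5.01. DBA/1 replicates 1 to 4 gave 2.49, 4.26, 4.27 and 4.15. The DBA/1 group thus held 3 close values and 1 far below them, and the low one was not well above background. The mean was 4.98 ± 0.27 (SD, n = 4) in C57BL/6 mice and 3.79 ± 0.87 (SD, n = 4) in DBA/1 mice. The log2 difference was -1.19 (standard error 0.36, limma), and without DBA/1 replicate 1 it was -0.76, under the fold threshold. The nearest values of the strains were 0.39 apart.

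Adam9, a membrane-anchored metalloprotease that sheds proteins from the cell surface, was detected on every array, with a wide spread in DBA/1 mice. The gene lies on chromosome 8 from 24949611 to 25017040. Its log2 signal in C57BL/6 replicates 1 to 4 was 6.29, 6.79, 6.55 and 6.62. The 4 DBA/1 mice had 5.58, 5.85, 4.46 and 5.02. DBA/1 replicates 3 and 4 lay below replicates 1 and 2, and the highest DBA/1 value was 0.44 below the lowest C57BL/6 value. The mean was 6.56 ± 0.21 (SD, n = 4) in C57BL/6 mice and 5.22 ± 0.62 (SD, n = 4) in DBA/1 mice, and the log2 difference was -1.34 (standard error 0.28, limma). The GC content of the Adam9 probe was 15%, the lowest of the 433 listed mRNA probes together with 2 others, against a median of 41.7% over that list. The other members' probes held 35% to 45% GC.

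The trafficking genes were the best measured members. The study's list gives a further transcript for each of their probes, and for that of Adam9, so the signal may come from more than 1 transcript. Snx6 encodes a sorting nexin, a subunit of the retromer coat that returns receptors from endosomes, and it can associate with TGF-β family receptors. It lies on chromosome 12 from 54746339 to 54795749. C57BL/6 replicates 1 to 4 gave log2 signals of 11.21, 11.85, 11.49 and 11.06. In DBA/1 replicates 1 to 4 they were 9.83, 10.19, 9.93 and 9.85. The strains were 0.87 apart at their nearest values. The mean was 11.40 ± 0.35 (SD, n = 4) in C57BL/6 mice and 9.95 ± 0.16 (SD, n = 4) in DBA/1 mice. The log2 difference was -1.45 (standard error 0.20, limma), a 2.74-fold lower signal.

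Arrb2 encodes β-arrestin 2, an adaptor that draws activated receptors into endocytosis, the type III TGF-β receptor among them. It lies on chromosome 11 from 70432485 to 70440828. The 4 C57BL/6 mice, in replicate order, had log2 signals of 8.64, 8.98, 8.81 and 8.61. DBA/1 replicates 1 to 4 gave 7.35, 7.41, 7.61 and 7.56. Arrb2 had the smallest spread of the 8 genes within each strain, at 8.76 ± 0.17 (SD, n = 4) in C57BL/6 mice and 7.48 ± 0.12 (SD, n = 4) in DBA/1 mice. The gap between the strains, 1.00, exceeded the whole range of either one. The log2 difference was -1.28 (standard error 0.17, limma), a 2.42-fold lower signal.

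The remaining members act inside the cell, and the probe sequences of both are shown because these probes lie away from the 3′ end of their transcripts, by 2134 and 1890 genomic bases for Rasl11b and Hpgd. Rasl11b encodes a small GTPase of the Ras family, and Hpgd encodes the dehydrogenase that starts the inactivation of prostaglandins. The 60-base probes are given as listed by the study, in lower case.
Rasl11b: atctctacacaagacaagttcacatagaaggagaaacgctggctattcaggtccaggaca
Hpgd: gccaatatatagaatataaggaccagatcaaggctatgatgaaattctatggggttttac
Rasl11b lies on chromosome 5 from 74195326 to 74199477. Its log2 signal in C57BL/6 replicates 1 to 4 was 5.07, 5.22, 4.65 and 4.72. The 4 DBA/1 mice had 2.65, 3.06, 3.69 and 3.14, with none of them well above background. The strains did not overlap and were 0.97 apart at their nearest values. By the bound described for Bmpr1b, the DBA/1 signal of Rasl11b was at least 2.94-fold lower, and with the stricter limit at least 2.03-fold lower. The measured means were 4.92 ± 0.27 (SD, n = 4) in C57BL/6 mice and 3.13 ± 0.43 (SD, n = 4) in DBA/1 mice, and the measured log2 difference was -1.78 (standard error 0.23, limma).

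Hpgd lies on chromosome 8 from 56294552 to 56321046. C57BL/6 replicates 1 to 4 gave log2 signals of 5.83, 5.75, 5.52 and 5.38. In DBA/1 replicates 1 to 4 it was 3.49, 4.37, 4.41 and 4.60. As with Htra3, DBA/1 replicate 1 was the lowest and the only array on which the probe was not well above background. The mean was 5.62 ± 0.21 (SD, n = 4) in C57BL/6 mice and 4.22 ± 0.49 (SD, n = 4) in DBA/1 mice. The log2 difference was -1.40 (standard error 0.24, limma), a 2.64-fold lower signal, and without DBA/1 replicate 1 it was -1.16.

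The scanner's error estimate was larger, as a percentage, for the dim spots than for the well measured ones. It comes from the same spots as the background flag and rises as intensity falls, so it is not separate evidence. Spots not well above background had intensities of 1.83 to 12.9, and the others 11.2 to 3847. On the 53 member spots well above background, the error was 10% to 20.6% of the intensity, with a median of 10.6%. On the 11 spots not well above background it was 22.5% to 100%, with a median of 33.3%. Snx6 and Arrb2 stayed under 10.2% on every array. For Rasl11b the error was 11.5% to 12.3% in C57BL/6 mice and 28.9% to 35.99% in DBA/1 mice.

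**Figure D2:**
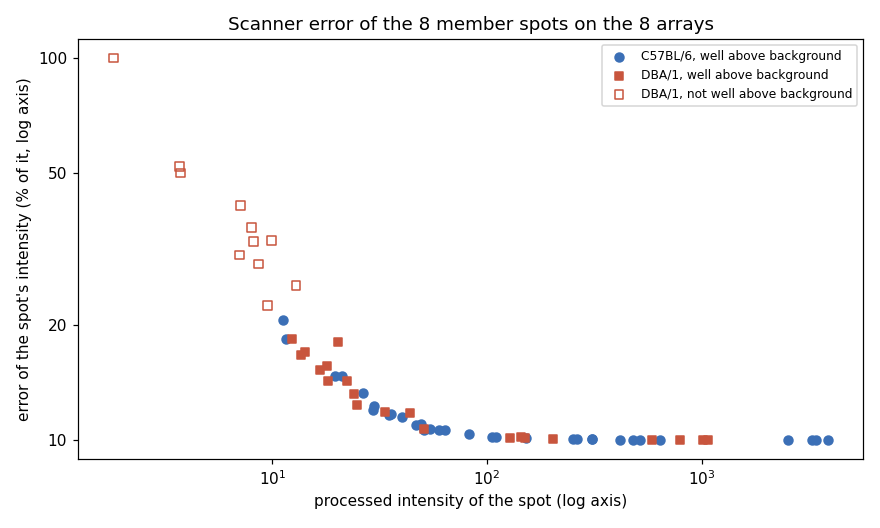
Error that the scanner software gave for each of the 64 member spots, as a percentage of the spot's processed intensity (vertical log axis), against that intensity before normalization between arrays (horizontal log axis). Blue circles are C57BL/6 spots and red squares DBA/1 spots, and open squares were not well above background. The error stays near 10% for bright spots and reaches 100% for the dimmest, a Bmpr1b spot of DBA/1 replicate 3.

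The strain difference of the dim members was smaller under normexp. This alternative replaced the processed intensity with the spot median, corrected it for background with a model and added an offset of 50. By arithmetic, such an offset shrinks the log2 difference of a dim probe more than that of a bright one. A smaller difference in the dim members is therefore partly built in. How much each of the 3 changes moved the values was not tested. Under it, Snx6 had a log2 difference of -1.37 and Arrb2 of -1.05, or 94.4% and 82.4% of the values above. Tdgf1 kept 54.5% of its difference, at -1.94, and Adam9 51.5%, at -0.69. Hpgd, Htra3, Rasl11b and Bmpr1b kept 35.4%, 26.0%, 24.1% and 16.3%, at -0.50, -0.31, -0.43 and -0.20. Under this alternative 3 of 8 members, Tdgf1, Snx6 and Arrb2, met the study's criterion. All 8 stayed lower in DBA/1 mice.

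**Figure D3:**
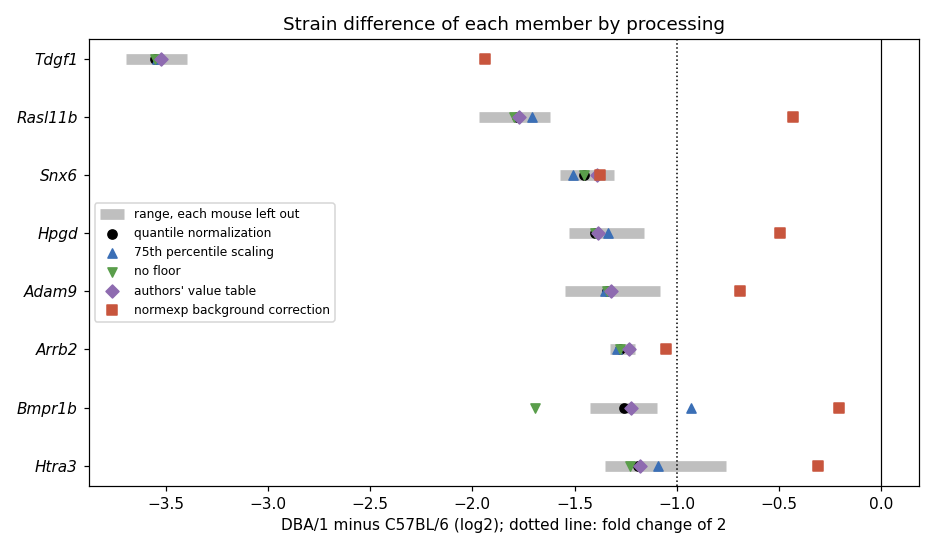
Log2 difference of each member (DBA/1 minus C57BL/6, horizontal axis) under the quantile normalization used here (black circles) and under 4 other settings, with gray bars for the range when each mouse was left out in turn. The dotted line marks a fold change of 2. Tdgf1, Snx6 and Arrb2 keep all their points left of that line, while the normexp squares of Adam9, Hpgd, Rasl11b, Htra3 and Bmpr1b lie right of it. The 75th percentile point of Bmpr1b, at -0.93, and the end of the Htra3 bar, at -0.76, lie right of it too.

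The arrays did not order the members alike. Within DBA/1, replicate 1 gave the lowest value for 5 members (Snx6, Arrb2, Rasl11b, Htra3 and Hpgd) and replicate 3 for 2 (Tdgf1 and Adam9), while Bmpr1b had tied values at the floor. Replicate 3 also gave the highest value for Arrb2, Rasl11b and Htra3. Within C57BL/6, replicate 4, the brightest array before normalization, gave the lowest normalized value for Tdgf1, Snx6, Arrb2 and Hpgd. No normalization at all made the differences larger, at -1.72 for Arrb2 and -1.93 for Snx6, with a median over all probes of -0.44.

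The genes lie on 6 chromosomes, and those that share one are far apart. Htra3 and Rasl11b are 38.5 Mb apart on chromosome 5, and Adam9 and Hpgd 31.3 Mb on chromosome 8. Within 300 kb of a member, another RNA of the study's lists as used here was found for 2 members and for none of the other 6. Pfn1, which encodes the actin-binding protein profilin, lies 211 kb from Arrb2 and was higher in DBA/1 mice, at 9.26 ± 0.43 against 8.15 ± 0.51 (SD, n = 4). Cep44, which encodes a centrosomal protein, lies 210 kb from Hpgd and was lower, at 6.87 ± 0.34 against 7.96 ± 0.22 (SD, n = 4). These neighbors too were listed for their strain difference.

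For the 3 members detected on all arrays, the most similar patterns among 1157 other named probes were found by the root mean square difference of log2 values over the 8 arrays, each probe centered on its mean. Nearest to Arrb2 were the lncRNAs listed as Zfp672, at 0.08, and AK081265, at 0.11. Nearest to Snx6 were the lncRNAs listed as Tmem151a, at 0.09, and Me2, at 0.11. Nearest to Adam9 were the mRNAs Gbe1, at 0.16, and Nmnat3, at 0.18. All named probes were chosen by the same strain contrast, so the likeness holds that contrast as well.

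Of 96 ligands, receptors, Smads, regulators, trafficking genes and targets of the TGF-β family, 10 had a named probe, 8 of them the members. The names cover only probes that the study picked, so the levels of the other 86, the Smads among them, were not analysed here. The others named were Crim1 and Bmp7. Crim1, a membrane protein that binds BMPs, had a log2 signal of 5.45 to 5.97 in C57BL/6 mice and was at the floor on all 4 DBA/1 arrays, at least 5.54-fold lower by the bound described for Bmpr1b and at least 3.32-fold lower with the stricter limit. The Bmp7 probe reads a noncoding transcript of that locus, listed as a lncRNA, and not the ligand's mRNA. It gave 5.35 ± 0.34 in C57BL/6 and 4.17 ± 0.76 in DBA/1 mice (log2 signal, SD, n = 4).

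Only 3 of 37 marker genes of brain cell types and regions had a named probe. Names cover only probes that the study listed for a strain difference, so these 3 cannot check the make-up of the tissue. The levels of the other 34 were not analysed here. Tph2, the enzyme of serotonin synthesis in raphe neurons, had a log2 signal of 9.38 to 10.73 in C57BL/6 mice and 11.11 to 11.60 in DBA/1 mice, well above background on all 8 arrays. A noncoding transcript of the serotonin transporter locus Slc6a4 was higher in DBA/1 mice, at 4.63 ± 0.40 against 3.05 ± 0.51 (SD, n = 4). Its probe was well above background on 4 DBA/1 arrays but on only 1 C57BL/6 array. Zic1, a transcription factor of cerebellar granule cells and dorsal hindbrain, was also higher in DBA/1 mice, at 5.43 ± 0.51 against 3.80 ± 0.43 (SD, n = 4). The Zic1 probe was well above background on 4 DBA/1 and 3 C57BL/6 arrays. These markers moved in the opposite direction to the members, and their part in the members' values was not tested.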

How the data were processed

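Each of 8 arrays held the brainstem RNA of 1 mouse, with 4 arrays per strain. The deposited scanner files hold spot intensity values, which the authors made with Agilent Feature Extraction 11.0.1.1, background-corrected and not normalized between arrays. The authors' deposited table of normalized log2 values (60804 probes) served as an alternative. Here, spots marked as controls or outliers were dropped, intensities were floored at 5, and probes of that table were quantile-normalized on the log2 scale. Probes well above background on at least 4 of 8 arrays, with values in both strains, were fitted (33179) without a block, using limma 3.58.1 (R 4.3.3). Python 3.11.15 with pandas 2.3.3 and numpy 2.4.6 produced the tables. The fit was tested on simulated data. Probe names, GO terms and probe sequences came from the study's lists of changed RNAs, which were used only for identity, and gene positions from RefSeq (GRCm38.p6), where all 8 members matched by gene identifier.

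The members, gene lists and alternatives were chosen with earlier results of these data known. The genes named were the members, listed genes of the TGF-β family and marker lists with a named probe, and the 2 nearest patterns of each member detected on all arrays. Neighbors within 300 kb and the stricter limit were added after values were seen. Other probes of the member genes could not be named and were not analysed here. The alternatives changed the scaling (75th percentile, or none), the floor (none, or set after normalization), the source (the authors' table, or the median spot signal with normexp), the spots (outliers kept), the filter (none, or every array well above background), the test (unpaired without moderation, a replicate block, an adjusted p), the fold change (1.5 or 3) and the mice (each left out in turn).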

Additional observations from a re-analysis of the deposited data

Results flagged for a closer look

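Among 16 sets of 4 values (8 genes in each strain), 1 with untied values held a mouse far from the other three, where chance gives about 1 set in 20. For Htra3 in DBA/1 mice, the gap between replicate 1 and its nearest neighbor was 0.931 of the range of the 4 values. For Bmpr1b in DBA/1 mice, this share was 1.000, because 3 of the 4 values were tied at the floor, which fixes it whatever the remaining value, so the chance rate does not apply. Both sets hold spots that were not well above background.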

How the results depend on the processing

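All 8 members stayed lower in DBA/1 mice under every alternative that gave a value. Of 139 recomputed member differences, 128 moved by less than the spread between replicates and 11 by more, of which 7 came from normexp, 3 (Tdgf1, Snx6 and Arrb2) from no normalization and 1 (Bmpr1b, at -1.70) from no floor. Much of this count was fixed in advance. Leaving out 1 of 4 mice cannot move a difference by more than this spread. The filters and the replicate block leave a member's difference unchanged by construction. The count of 128 is therefore no measure of robustness. Under normexp, 3 members, 279 lower and 101 higher probes met the study's criterion, against 8, 1098 and 350. With probes well above background on all arrays, 3 members, 467 lower and 220 higher probes did. At a fold change of 3, 2 members, 442 lower and 134 higher probes did, and at 1.5, 2352 lower and 1148 higher probes. With each mouse left out, 7 to 8 members, 1056 to 1273 lower and 338 to 418 higher probes met it. Htra3 ranged from -1.35 to -0.76, the latter without DBA/1 replicate 1. Under 75th percentile scaling, 7 members met it, with Bmpr1b at -0.93, and 7 met it with an adjusted p. Except where the construction shows it (fewer probes tested, another fold, the offset on dim probes), the cause was not tested. Normexp changed the signal, the correction and the offset together, and their shares were not separated. The replicate numbers mark different mice, and deviations of same-numbered arrays correlated at 0.376, 0.0214, 0.135 and 0.350, with 3 of 4 arrays closest to their own number. With the replicate block, 8 members, 1104 lower and 350 higher probes met the criterion. Signal over background limits what can be said of Rasl11b and Bmpr1b in DBA/1 mice.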
